A study of Mus musculus with 8 samples.

Results

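The genes described are 10 genes of antigen presentation in the epidermis: the class II chains H2-Aa, H2-Ab1 and H2-Eb1, the peptide-loading genes Cd74, H2-DMa and H2-DMb1, the class II regulator Ciita, and Cd207, Epcam and Cd86, which mark Langerhans cells or their activation. They were taken by gene symbol, each from the probe set that names that gene alone. This gave 9 of the 10, out of 22180 genes on the arrays. Cd74 was not measured here, since its probe set also names the microRNA gene Mir5107, and it has no value below. Total epidermal RNA of newborn C57BL/6J mice at postnatal day 0 was hybridised to 8 arrays, 1 per sample. The 4 K320E arrays carry the genotype label K320E-TwinkleEpi. They express a mutant form of Twinkle, directed to the epidermis by the K14 promoter, which is active in basal keratinocytes. Twinkle is the helicase of the mitochondrial DNA replication fork. The 4 control arrays carry the label R26-K320E-TwinkleloxP/+, so the control label names the K320E-Twinkle allele too. Nothing in the labels ties the arrays of a group to separate newborns. The p-values therefore describe the scatter of these arrays, part of which may be technical.

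Class II molecules hold peptides from engulfed proteins on the surface of antigen-presenting cells, where CD4 T cells read them. An alpha and a beta chain pair in the endoplasmic reticulum around the invariant chain (Cd74), and H2-DM later swaps the invariant chain fragment for peptide in the endosome. H2-Aa and H2-Ab1 encode the chains of I-A. C57BL/6 mice have no working I-E alpha chain gene, so the product of H2-Eb1, the I-E beta chain, finds no partner. Ciita encodes the coactivator that class II promoters need. Langerhans cells are the dendritic cells of the epidermis. Their precursors enter it around birth and acquire class II and langerin (Cd207) in the days that follow. They are not keratinocytes and do not use the K14 promoter.

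Class II promoters share an X box, bound by the RFX complex, followed by a Y box, bound by NF-Y, and Ciita is recruited to factors on these boxes. The promoter stretches of the 3 members in which this pair was found are shown because they place a called gene beside uncalled ones with the same arrangement. This contrast is limited. H2-DMb1 had low values on all 8 arrays, so a fall in it could have been missed. H2-Ab1, the other called gene, had no promoter window here. The bases are from RefSeq (GRCm38.p6), read 5′ to 3′ along each gene's strand. Capitals mark the X-box core GNAAC and the Y box TGATTGG. They lie at chr17:34287852-34287924 on the minus strand for H2-Aa, chr17:34305756-34305827 on the plus strand for H2-Eb1, and chr17:34153077-34153149 on the plus strand for H2-DMb1.
H2-Aa: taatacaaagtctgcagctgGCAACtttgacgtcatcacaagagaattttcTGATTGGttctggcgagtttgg
H2-Eb1: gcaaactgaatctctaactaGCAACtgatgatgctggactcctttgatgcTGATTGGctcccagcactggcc
H2-DMb1: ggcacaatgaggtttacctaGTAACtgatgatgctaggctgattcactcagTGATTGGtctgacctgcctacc

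The pair is separated by 26 bases in H2-Aa and H2-DMb1 and by 25 in H2-Eb1. The Y box begins 50, 61 and 63 bases before the annotated start in H2-Aa, H2-Eb1 and H2-DMb1, respectively. A promoter window was at hand for 6 of the 10 members, and the pair was found in 3 of them; it was not found in the windows of H2-DMa, Cd207 or Epcam. The search covered both strands and allowed 20 to 35 bases between the boxes, which do not overlap. Its letters were chosen after the promoters were read. Of all 32851 windows of the same length, 140 (0.426%) held the pair, and 7.82% held TGATTGG with or without the X-box core. Among the other class II genes H2-Eb2, H2-Oa and H2-Ob held it too, H2-DMb2 did not, and H2-Ea had no window here. A match is a description of letters, not a measured binding site.

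**Figure D1:**
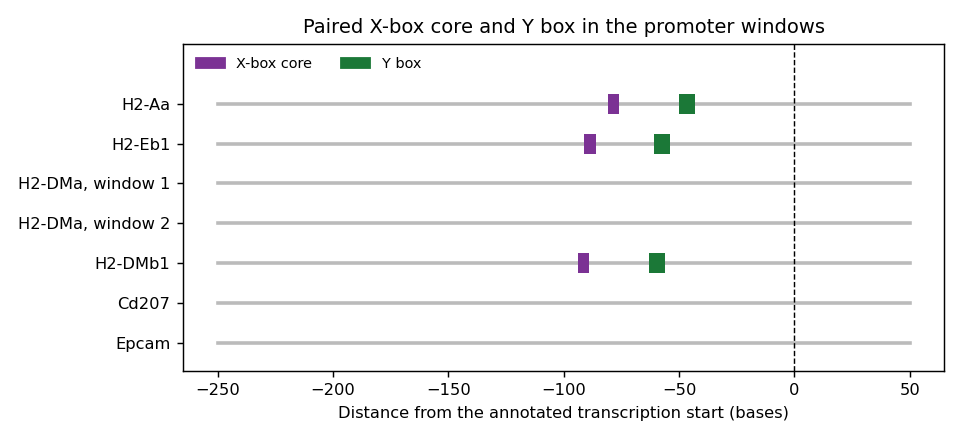
The map gives the distance in bases from the annotated transcription start for each promoter window (grey line) and the place of the X-box core and the Y box where the pair was found. H2-Aa, H2-Eb1 and H2-DMb1 hold the pair at similar distances from the start, with 25 or 26 bases between the boxes.

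The genotypes were compared with limma over all 22180 genes, and a gene is called when its Benjamini-Hochberg adjusted p is under 0.05. Twnk, the gene of Twinkle, was at 8.91 to 9.28 on the K320E arrays and at 6.55 to 6.95 on the controls, on the log2 intensity scale of all levels below, so its level fitted the labels on all 8 arrays. The sex-linked transcripts of 2 controls stood apart. Control replicate 3 had low Xist (6.17) and a low mean over 3 Y-linked genes (4.75), and control replicate 2 had high values of both (9.27 and 9.05). K320E replicate 3 had low Xist (6.84) and a high Y-linked mean (8.64), unlike the other K320E arrays and control replicates 1 and 4, which had high Xist and low Y-linked means. Each member's call is also given without the 2 controls where that changes it.

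Both chains of I-A fell in K320E, while the other 7 measured genes did not pass the test. H2-Aa and H2-Ab1 were 2.07-fold and 1.97-fold higher in the control arrays than in K320E. These 2 called genes of 9 compare with 0.194% of all genes called lower and 0.879% called in either direction. In bulk epidermis fewer antigen-presenting cells and less RNA per cell cannot be told apart.

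H2-Aa, the I-A alpha chain, was measured at 5.53, 5.38, 5.36 and 5.33 in K320E replicates 1 to 4 and at 6.34, 6.38, 6.65 and 6.43 in control replicates 1 to 4. All K320E arrays lay below all controls, with a gap several times the spread inside either group. The means were 5.40 ± 0.09 and 6.45 ± 0.14 (SD, n = 4 each). In limma's fit H2-Aa fell by 1.05 on the log2 scale (SE 0.08, 95% interval -1.23 to -0.87, adjusted p = 0.00206). The exact two-sided permutation test gave p = 0.0286, the smallest that 4 arrays against 4 allow. The 4 K320E values lie under 5.69, the level below which 33.3% of all genes fall by mean. No background measure was at hand, so the K320E level of H2-Aa cannot be told from background and its fold change may be understated.

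H2-Ab1, the I-A beta chain, was at 7.11, 6.72, 6.65 and 6.74 in K320E and at 8.07, 7.68, 7.80 and 7.58 in controls. The groups did not overlap, and replicate 1 was the highest array in each. Means of 6.80 ± 0.21 and 7.78 ± 0.21 (SD, n = 4 each) differed by -0.98 (SE 0.13, 95% interval -1.27 to -0.69, limma adjusted p = 0.0129). Without K320E replicate 3 the change was -0.93 and the call was lost (limma adjusted p = 0.0506). It was also lost without control replicates 2 and 3 together (-1.02, limma adjusted p = 0.0552), when the count of called members went from 2 to 1. H2-Aa stayed called in both cases (limma adjusted p = 0.012 and 0.0133).

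H2-Eb1, the chain without a partner in this strain, was at 5.89, 6.10, 5.83 and 5.91 in K320E and at 6.16, 6.03, 6.21 and 6.10 in controls. The groups overlapped through K320E replicate 2 and control replicate 2. Its log2 fold change was -0.19 (SE 0.07, 95% interval -0.36 to -0.03, limma adjusted p = 0.252). This interval does not reach those of H2-Aa or H2-Ab1. However, the mean of H2-Eb1 over all arrays, 6.03, lay below every array median (6.06 to 6.11). With no background measure at hand, its fold change may be understated. The difference between the chains was noticed in these values and is given without a test.

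The measured peptide-loading genes, both parts of H2-DM, had no call. H2-DMa, the alpha chain, was at 6.98, 6.61, 6.78 and 6.67 in K320E and at 6.93, 7.03, 6.92 and 6.84 in controls. K320E replicate 1 lay among the controls and the other 3 below them, and the fold change was -0.17 (95% interval -0.37 to 0.02, limma adjusted p = 0.392). H2-DMb1, the beta chain, was at 4.81, 5.05, 4.90 and 4.76 in K320E and at 4.83, 4.80, 5.04 and 4.78 in controls. These values are interleaved and all under 5.69, and the fold change was 0.02 (95% interval -0.17 to 0.21, limma adjusted p = 0.953).

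Ciita, the class II coactivator, was at 6.62, 6.51, 6.52 and 6.53 in K320E and at 6.56, 6.57, 6.45 and 6.59 in controls. The highest and the lowest of the 8 arrays differ by less than the H2-Aa gap between groups. Its fold change was 0.00 (SE 0.06, 95% interval -0.12 to 0.13, limma adjusted p = 0.985). An interval this narrow holds no change of the size seen for the I-A chains, within what this probe set measures. The mean of Ciita over all arrays, 6.55, was little above the array medians (6.06 to 6.11). Without a background measure, a change in its RNA may be understated.

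Cd207, the langerin gene that defines Langerhans cells, was at 5.54, 5.53, 5.58 and 5.67 in K320E and at 5.74, 5.63, 5.56 and 5.67 in controls. The groups overlapped, and 7 of the 8 values lie under 5.69. The fold change was -0.07 (SE 0.06, 95% interval -0.20 to 0.07, limma adjusted p = 0.687). Probe sets differ in affinity, so these intensities do not give the amount of langerin RNA, and Langerhans cells could not be checked by their defining marker.

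Epcam, an adhesion molecule of Langerhans cells and of many epithelia, was at 9.98, 9.97, 9.81 and 9.88 in K320E and at 10.05, 10.13, 10.20 and 9.99 in controls. All K320E values lay below all controls, with 9.98 as the highest K320E value and 9.99 as the lowest control. The fold change was -0.18 (SE 0.07, 95% interval -0.33 to -0.03), and it was not called (limma adjusted p = 0.241). With Epcam, 3 of the 9 members had lower groups that did not overlap, beside 3.75% of all genes. Counted by an unadjusted p under 0.05, the 4 members H2-Aa, H2-Ab1, H2-Eb1 and Epcam passed, beside 14.8% of all genes.

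Cd86, a costimulatory ligand that antigen-presenting cells raise on activation, was at 5.30, 5.49, 5.52 and 5.40 in K320E and at 5.52, 5.49, 5.85 and 5.55 in controls. Control replicate 3 stood above the other 7 arrays, which lie within 5.30 to 5.55. The fold change was -0.18 (95% interval -0.38 to 0.03, limma adjusted p = 0.411), and without control replicate 3 it was -0.10. Over all 9 members the median fold change was -0.18, against 0.0 over all genes, and 7 of 9 were negative. By role the medians were -0.98 for the class II chains, -0.08 for peptide loading, 0.0 for Ciita and -0.18 for the Langerhans and costimulation genes. In all, 6 of the 9 members had a mean above 5.69; H2-DMb1, Cd207 and Cd86 did not.

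**Figure D2:**
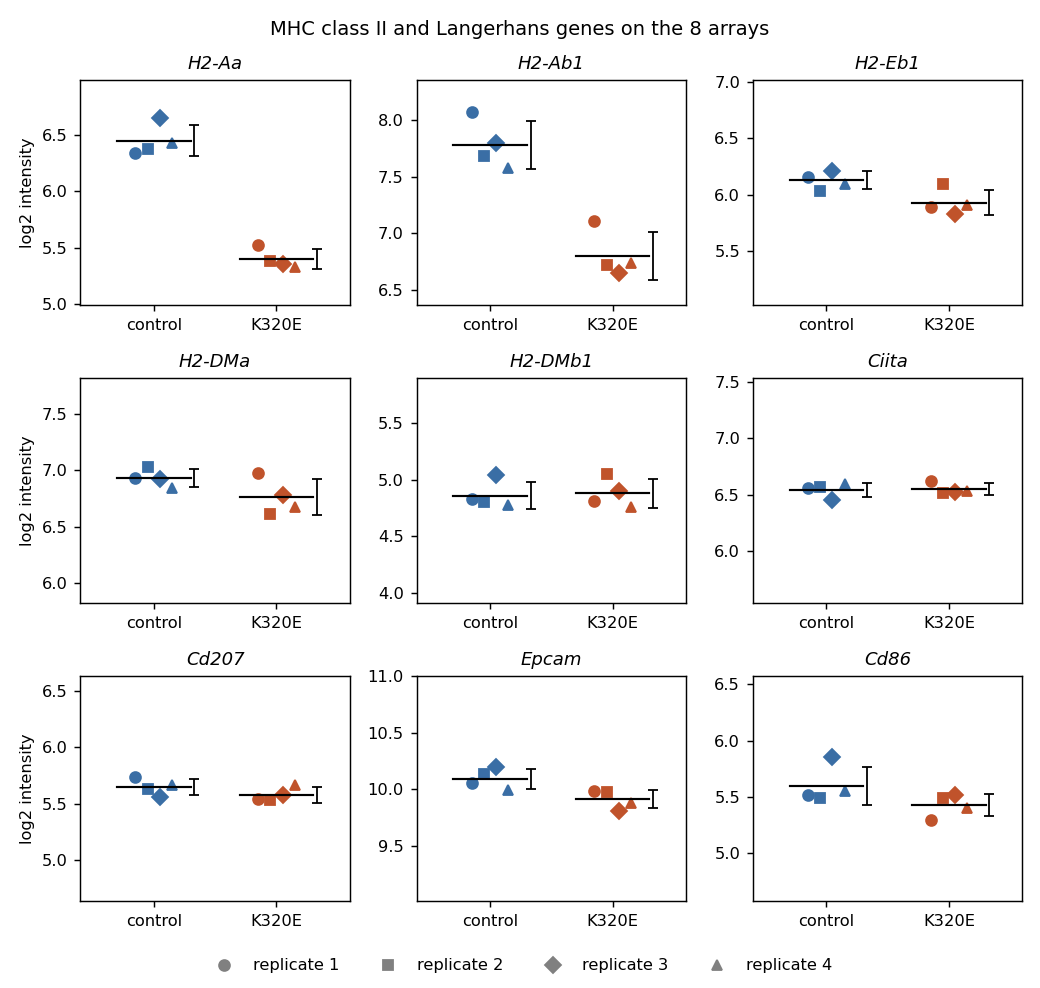
Each panel gives the log2 intensity of 1 gene on the 4 control and 4 K320E arrays, with symbols for the replicate number, a line at the group mean and a bar of 1 SD on each side. Every panel spans the same log2 range, and H2-Aa and H2-Ab1 show the clear gaps between the groups.

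**Figure D3:**
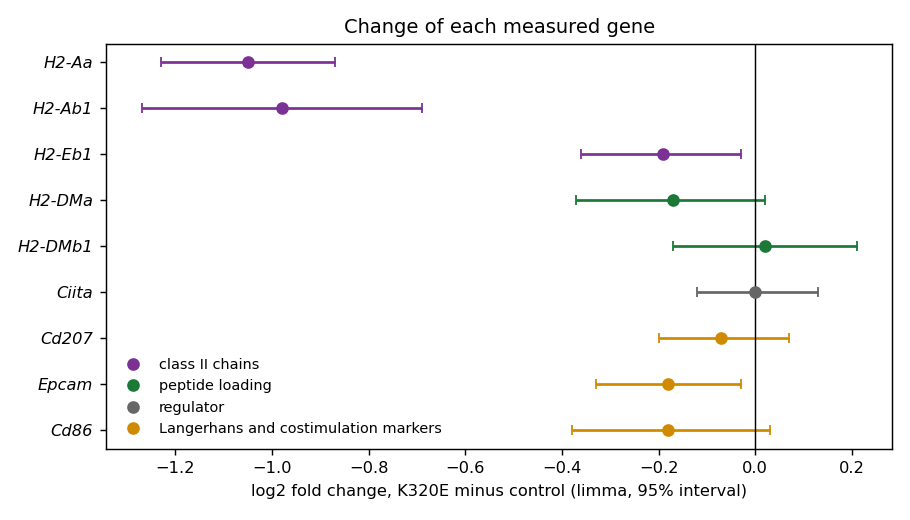
Points are limma log2 fold changes, K320E minus control, with 95% intervals, coloured by role. The intervals of H2-Aa (-1.23 to -0.87) and H2-Ab1 (-1.27 to -0.69) lie apart from those of the other 7 genes.

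Within each array H2-Aa was set against 1 gene of each other role. For H2-Aa minus Cd207 the K320E mean was -0.18 ± 0.14 and the control mean 0.80 ± 0.20 (SD, n = 4 each), which differ by -0.98 (SE 0.12). The same quantity differed by -0.88 (SE 0.10) against H2-DMa, by -1.05 (SE 0.10) against Ciita and by -0.87 (SE 0.06) against Epcam. The 4 pairs share H2-Aa, which was picked with earlier results known, so they are a description without a test. Low intensities of H2-Aa in K320E and of Cd207 limit them.

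No other listed gene of the class II route was called. Of the 5 other class II chains and chaperones 0 were called by limma and 0 had an unadjusted p under 0.05, with a median fold change of 0.02. All but H2-Oa had a mean under 5.69 (H2-Ea 5.13, H2-Eb2 5.16, H2-Ob 5.20, H2-DMb2 5.32). H2-Ea is the I-E alpha chain gene, which does not work in this strain, so its lack of a call says little. A fall in the other low genes could have been missed. H2-Oa, which with H2-Ob restrains H2-DM, had a fold change of 0.02, and H2-DMb2, a second DM beta chain, one of -0.30 with overlapping groups. None of the 9 genes of processing and turnover was called by limma, and 2 had an unadjusted p under 0.05. They were Ctsl, a lysosomal protease (0.22), and Ctss, the protease that trims the invariant chain in professional presenting cells, named after its value was seen. Ctss was at 9.99, 10.10, 10.31 and 9.83 in K320E and at 10.09, 10.45, 10.44 and 10.54 in controls. These groups overlap through control replicate 1 (fold change -0.32, SE 0.12, limma adjusted p = 0.27). Ctsd, another lysosomal protease, had a fold change of 0.06.

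The transcription factors that meet at the X and Y boxes had 0 of 7 genes called by limma and 0 with an unadjusted p under 0.05 (median 0.03). Nfyb, of the Y-box complex, had a fold change of -0.20 and Creb1 one of 0.05. In the interferon gamma route, which induces Ciita outside professional presenting cells, 0 of 7 measured genes were called by limma and 1 had an unadjusted p under 0.05 (median 0.0). Jak1 had a fold change of 0.10 and the receptor chain Ifngr1 one of 0.00. Class I presentation, which shows peptides from inside the cell, had 0 of 10 genes called by limma and 0 with an unadjusted p under 0.05 (median -0.01). B2m, the light chain of class I, was at 12.40 to 12.65 in K320E and 12.47 to 12.61 in controls. The peptide-trimming enzyme Erap1 had a fold change of -0.13.

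Genes of Langerhans and dendritic cells had mostly negative fold changes and no call. Of 23 measured, 0 were called by limma, 8 had an unadjusted p under 0.05 (beside 14.8% of all genes), and 19 had negative fold changes (median -0.08), as had 11130 of the 22180 genes. In 5 of the 23 (21.7%) the K320E arrays all lay below the controls, beside 3.75% of all genes, and in 0 they lay above, beside 5.5%. Tyrobp, the adaptor of myeloid and NK cell receptors, was at 8.69, 9.07, 9.11 and 8.99 in K320E and at 9.21, 9.74, 9.40 and 9.57 in controls, apart but not called (fold change -0.51, limma adjusted p = 0.111). The 4 others were named after their values were seen: Irf8, a factor of the dendritic and monocyte lineages (-0.36), Id2, which Langerhans cells need (-0.34), the chemokine receptor Cxcr4 (-0.31) and the integrin Itgae (-0.25). Ptprc, the pan-leukocyte gene CD45, also named after its value was seen, had a fold change of -0.54 (limma adjusted p = 0.225) with overlapping groups. Cd24a, which keratinocytes also make, had one of -0.05. The Langerhans cell markers Ly75 and Itgax, named after their values were seen, had fold changes of 0.09 and -0.03 with overlapping groups. Their mean levels were low (5.43 and 5.75). The mean of this list was 6.79 to 6.89 on the K320E arrays and 6.94 to 7.03 on the controls. It was lower in K320E, as the I-A chains were, but not every marker in it was. Nor is the list specific to these cells, since Ptprc marks all leukocytes and Tyrobp also serves NK cells. Of the T cell markers below, 6 had negative fold changes, Cd3g (-1.19) the largest, and 2 had positive ones. Which cells carried the differences in this list was not tested. The part of this list in the fall of the I-A chains was not tested.

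Markers of other leukocytes that could carry class II or enter with them were mixed. Macrophage markers had 0 of 13 genes called by limma and 4 with an unadjusted p under 0.05 (median -0.07). In 3 of the 13 (23.1%) the K320E arrays all lay above the controls, beside 5.5% of all genes, and in 0 below. The array means were 6.60 to 6.74 in K320E and 6.53 to 6.84 in controls. Cd68, a lysosomal protein of macrophages, was above every control in every K320E array (fold change 0.51, limma adjusted p = 0.137), and the complement gene C1qb had a fold change of -0.13. The others with an unadjusted p under 0.05, named after their values were seen, went both ways. Cd14 had a fold change of 0.46, Cx3cr1 one of -0.41 and Aif1 one of -0.33 (limma adjusted p = 0.111, 0.171 and 0.26). B cell markers had 0 of 7 genes called by limma and 1 with an unadjusted p under 0.05 (median -0.02), with means of 5.39 to 5.43 in K320E and 5.39 to 5.47 in controls. Pax5, the B cell factor, had a fold change of 0.03 and Cd79a one of -0.17. None of these lists had a mean that set the genotypes apart.

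Among 8 epidermal T cell markers (median fold change -0.15) 1 was called, beside 0.685% of all genes called higher, and in 2 (25.0%) the K320E arrays all lay below the controls, beside 3.75%. The called gene was Thy1, a surface protein of T cells and also of fibroblasts, which rose by 0.69 (SE 0.13, limma adjusted p = 0.0495). When 1 array was left out, this Thy1 call was kept only without control replicate 3 and lost without any of the other 7 (fold changes 0.62 to 0.80, limma adjusted p up to 0.146). It was kept in 5 of the 9 other alternatives (limma adjusted p 0.0256 to 0.0666). The T cell receptor genes had negative fold changes. Cd3g, chosen after its value was seen, was at 6.30, 7.16, 6.42 and 6.47 in K320E and at 7.24, 8.17, 7.17 and 8.52 in controls. The K320E arrays lay below all controls, with a wide spread among the controls (fold change -1.19, SE 0.32, limma adjusted p = 0.136). Cd3d, chosen likewise, had a fold change of -0.75 (limma adjusted p = 0.0645). The list mean was 5.96 to 6.28 in K320E and 6.19 to 6.45 in controls. Whether fewer T cells took part in the I-A result was not tested.

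Costimulatory genes other than Cd86 had 0 of 8 called by limma and 2 with an unadjusted p under 0.05 (median 0.06). Icam1, an adhesion ligand for lymphocytes, was above all controls in every K320E array (fold change 0.52, limma adjusted p = 0.0604), as was Icosl (0.26, limma adjusted p = 0.177). These are 2 of 8 genes (25.0%), beside 5.5% of all genes, and in 0 the K320E arrays all lay below, beside 3.75%. Of the 8 fold changes 7 were positive. Array means of this list were 6.01 to 6.09 in K320E and 5.87 to 5.97 in controls, so they set the genotypes apart, higher in K320E. Ligands that keratinocytes and others make for Langerhans cells had 0 of 12 called by limma and 3 with an unadjusted p under 0.05 (median -0.04). Il34, the keratinocyte ligand that maintains Langerhans cells and was chosen after its value was seen, was at 8.25, 8.03, 7.88 and 7.50 in K320E and at 8.20, 8.71, 8.51 and 8.14 in controls. The groups overlap through K320E replicate 1 (fold change -0.47, SE 0.17, limma adjusted p = 0.247). The other ligands with an unadjusted p under 0.05, also named after their values were seen, went the other way. Tslp had a fold change of 0.63 and Il1b one of 0.64 (limma adjusted p = 0.187 and 0.311), both with overlapping groups. Bmp7 had a fold change of 0.26 and the chemokine Cxcl14 one of 0.01.

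Epithelial lists were read beside Epcam. Genes of simple epithelia and Epcam partners had 0 of 9 called by limma and 2 with an unadjusted p under 0.05 (median 0.06), and the E-cadherin gene Cdh1 had a fold change of -0.01 and the tetraspanin gene Cd9 one of 0.05. Hair follicle epithelium had 0 of 10 called by limma and 0 with an unadjusted p under 0.05 (median -0.02), with Krt17 at 0.20 and Cdh3 at 0.15. Keratinocyte markers, which check the tissue, had array means of 11.87 to 12.02 in K320E and 11.83 to 11.97 in controls. Of these 0 of 8 were called by limma and 2 had an unadjusted p under 0.05. The suprabasal keratins Krt10 and Krt1 had fold changes of -0.01 and 0.07. Krt14 and Krt15, named after their values were seen, set the genotypes apart in opposite directions. All K320E arrays lay above the controls for Krt14 (0.27, limma adjusted p = 0.141) and below them for Krt15 (-0.31, limma adjusted p = 0.117). Each is 12.5% of the list, beside 5.5% of all genes higher and 3.75% lower. Fibroblast markers had 0 of 7 called by limma and 0 with an unadjusted p under 0.05 (median 0.15), with Dcn at -0.14 and Vim at 0.14.

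**Figure D4:**
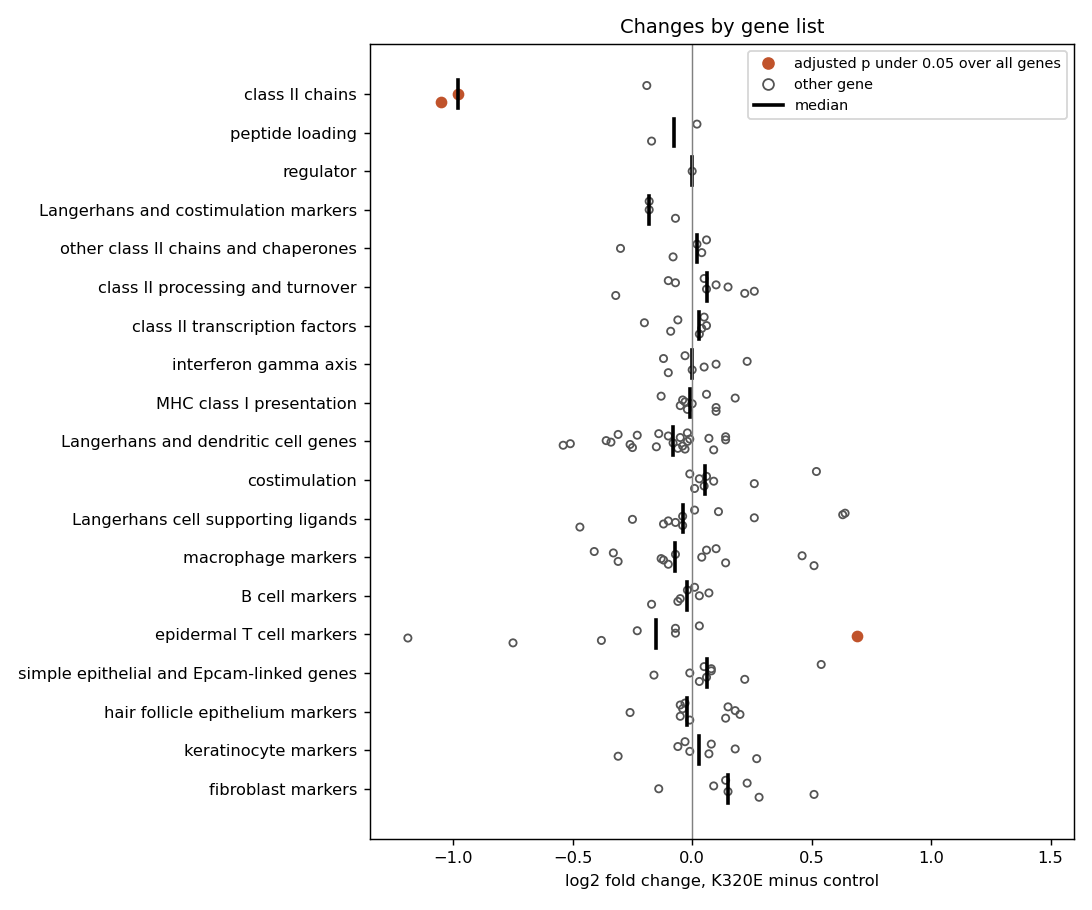
Each circle is the log2 fold change, K320E minus control, of 1 gene, grouped by list, with a bar at the list's median and filled circles for genes called over all genes. The filled genes are H2-Aa and H2-Ab1 to the left and Thy1 to the right.

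The profile of H2-Aa over the 8 arrays was most like those of 3 mitochondrially encoded genes among 6332 genes whose range was at least 0.5. Pearson's r was 0.978 with CYTB, 0.977 with COX3 and 0.967 with ND2, all lower in K320E and not overlapping. CYTB was at 11.91 to 11.99 in K320E and at 12.38 to 12.48 in controls. Genes that separate the genotypes cleanly score high by this measure, so it describes the shape of the profile only. For Cd207 the 3 most alike were Ccdc66 (r = 0.939), C1ra (0.936) and Sag (0.928), of which 0 were called by limma and 0 had an unadjusted p under 0.05.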

How the data were processed

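The authors' deposited values are log2 intensities of 33793 probe sets on 8 arrays, between 4.31 and 13.1, with array medians of 6.06 to 6.11. Per the labels' protocols, RNA was extracted with a Maxwell simplyRNA kit, amplified with NuGen Applause WT-Amp Plus ST and labelled with biotin; how the background was corrected and the values summarised and normalised is not given in the sources used here. No arrays held identical values. Probe sets were named through GEO's platform annotation: 23521 had 1 symbol, 1814 several and 8458 none. The probe set with the highest mean stood for a gene. The test was limma's moderated fit (version 3.58.1, R 4.3.3), with genotype alone in the model and Benjamini-Hochberg adjustment over all genes. Probe sets differ in affinity, so intensities of different genes are not a measure of their relative amounts. With 4 arrays a group, their number limits the precision.

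The members and gene lists were chosen with earlier results of these data known. Within-array pairs were planned with Cd74; H2-Aa took its place once Cd74 proved to share its probe set. The rule for named genes took all members, Twnk, and from each other list its called genes or else the 2 with the highest mean, with genes named after their values were seen marked as such, and for the likeness search the 3 highest r for Cd207 and, in place of Cd74, H2-Aa. The fit was tested on simulated data. Each member's fold change and the counts of called genes were recomputed with each array left out, with control replicates 2 and 3 left out together, with a replicate block, with array weights, with a robust intensity-trend prior, without the lowest 33.3% of genes, with probe sets averaged or tested singly, and after median or quantile scaling of the arrays. The pairs were recomputed with arrays left out, with probe sets averaged and after quantile scaling.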

Additional observations from a re-analysis of the deposited data

Results flagged for a closer look

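The highest control array for Cd86, replicate 3 at 5.85, stood apart from the other 3 controls by more than Dixon's 95% critical value for 4 samples. This was 1 of 18 groups of 4 arrays examined, and chance flags about 1 in 20.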

How the results depend on the processing

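H2-Aa was called in all 8 fits that left out 1 array (-1.09 to -0.98, limma adjusted p up to 0.0122) and in all 9 other alternatives (-1.09 to -0.99, adjusted p up to 0.0266). H2-Ab1 was called in 7 of the 8 (-1.08 to -0.88) and in 8 of the 9; without control replicates 2 and 3 together it was -1.02 and not called, leaving 1 called member. Over the 8 fits the called members were 1 to 2. None of the other 7 members was called under any of these alternatives; H2-DMb1, Cd207 and Cd86 have no value when the lowest 33.3% of genes are left out. Over all genes the calls ran from 53 to 173 when 1 array was left out, against 195, and were 114 with the replicate block, where H2-Aa and H2-Ab1 stayed called (-1.05, adjusted p = 0.0266, and -0.98, adjusted p = 0.0191). Whether the replicate numbers pair the arrays was not settled. Same-numbered deviations correlated weakly, at 0.051, -0.065, 0.082 and 0.137, but 4 of 8 arrays correlated best with their own number. The 4 within-array differences kept their sign and moved by less than the larger of the groups' SDs in the 8 fits without 1 array and in the 3 other settings tried for them. The cause of the changes was not tested. Low intensity limits H2-Aa, H2-DMb1, Cd207 and Cd86. It may also limit H2-Eb1 and Ciita, with means of 6.03 and 6.55, since no background measure was at hand.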
